A study of Danio rerio with 24 samples.

Results

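The genes gsc (goosecoid, ENSDARG00000059073) and dmbx1 (ENSDARG00000009922) were followed across all 8 groups of an RNA-seq series on sorted zebrafish embryonic cells. They are 2 of the 33737 genes in the count tables, and both had counts in the tables of all groups compared here. They were selected on their loss from RA-treated endodermal cells in these same data, so that every value of RA-treated cells below is a description and was not tested. The DMSO-treated endodermal cells were the other side of that selection. Tests against these DMSO cells below reuse their values, and the p-values do not account for this. Both IDs carry a symbol in the supplied name table, where the gene called dmbx1 here (dmbx1a in the study's own tables) stands as DMBX1, the symbol also given to its other zebrafish copy (ENSDARG00000002510).

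Cells came from Tg(sox17:GFP) embryos, a line in which the sox17 promoter drives GFP. The endodermal groups were GFP+ cells of embryos exposed to retinoic acid (RA), to BMS493 or to the solvent DMSO, and the non-endodermal (NE) group was made of GFP- cells of the DMSO-treated embryos. BMS493 is an inverse agonist of the RA receptors. Exposure covered the blastula and gastrula periods and ended at 3 somites. Cells were collected at 8 somites (8-S, after wash and further culture without the compounds) or at 3 somites (3-S), with 3 libraries in each group. All embryos carried the transgene, and NE cells were never collected from RA- or BMS493-treated embryos. The sox17 promoter is also active in the dorsal forerunner cells that build Kupffer's vesicle, so that GFP+ does not mean endoderm alone. Nothing in the labels says whether the 3 libraries of a group came from separate clutches, and p-values then measure only the spread between these libraries.

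Both genes encode paired-like homeodomain proteins, which bind DNA and regulate transcription. gsc is a classic gene of the vertebrate organizer: Nodal signalling induces it in the dorsal mesendoderm, and it later marks the prechordal plate, the most anterior axial mesendoderm. dmbx1 is related to the Otx genes and takes its name from the diencephalon and mesencephalon, where it is expressed in vertebrate embryos. RA is a posteriorising signal in the gastrula. Excess RA reduces anterior structures, and RA receptors act as ligand-dependent transcription factors.

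Library depth was similar across the series. Total gene counts lay between 9971059 and 17806766 per library (median 12791573), and 3 counts, taken as the floor of detection, corresponded to 1.68e-05% to 3.01e-05% of a library. This floor covers counting error only, because PCR-amplified reads without molecular identifiers are not independent molecules. In DMSO cells 4 of 5 matched endoderm marker IDs were called higher than in NE cells at both stages, among them FOXA2 (log2 fold change 4.11 at 8-S and 4.07 at 3-S) and foxa3 (4.85 at 8-S and 5.37 at 3-S), forkhead factors of the endoderm, and 1 copy of CXCR4 (ENSDARG00000041959) was called lower. Of all genes tested, 4.4% were called higher and 2.78% lower in this comparison at 8-S, and 4.23% higher and 3.35% lower at 3-S. sox17, sox32, foxa1 and gata6 were not analysed here. dand5, a Nodal antagonist made in Kupffer's vesicle, averaged 1401 ± 943 normalised counts in DMSO 8-S cells and 1.34 ± 1.52 in NE 8-S cells (SD, n = 3 each).

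In RA-treated endodermal cells the transcripts of both genes were at or close to the floor. gsc had 2, 8 and 6 raw counts in the 3 RA 8-S libraries and 1, 3 and 5 in the RA 3-S libraries, 25 counts in all. dmbx1 had 2, 0 and 0 raw counts in RA 8-S and 0, 3 and 0 in RA 3-S, so that 4 of 6 RA libraries held no dmbx1 read. By contrast, the lowest count in the 18 other libraries was 23 for gsc and 181 for dmbx1, and no RA library overlapped with any other library of the series for either gene.

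Values below are normalised counts, raw counts divided by the DESeq2 size factor of the library. For gsc at 8-S they were 1.91, 7.93 and 5.22 in RA cells, 622.8, 459.5 and 1208 in BMS493 cells, 309.2, 564.3 and 416.1 in DMSO cells and 22.97, 71.3 and 47.3 in NE cells. For gsc at 3-S they were 1.31, 2.79 and 4.26 in RA cells, 464.4, 568.7 and 1129 in BMS493 cells, 773.3, 414.9 and 1012 in DMSO cells and 61.1, 72.5 and 121.1 in NE cells. At each stage the libraries thus formed 3 levels that did not overlap: RA cells lowest, NE cells between, and BMS493 and DMSO endodermal cells highest and intermingled. The third BMS493 8-S library held the highest gsc value of the series.

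For dmbx1 at 8-S the normalised counts were 1.91, 0 and 0 in RA cells, 1141, 818.9 and 706.9 in BMS493 cells, 967.9, 1416 and 993.3 in DMSO cells and 180.8, 336.2 and 228.3 in NE cells. For dmbx1 at 3-S they were 0, 2.79 and 0 in RA cells, 559.0, 551.7 and 856.6 in BMS493 cells, 2061, 1171 and 1145 in DMSO cells and 489.7, 476.5 and 443.7 in NE cells. BMS493 cells overlapped with DMSO cells at 8-S. At 3-S all 3 BMS493 libraries lay below all 3 DMSO libraries and above all 3 NE libraries.

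**Figure D1:**
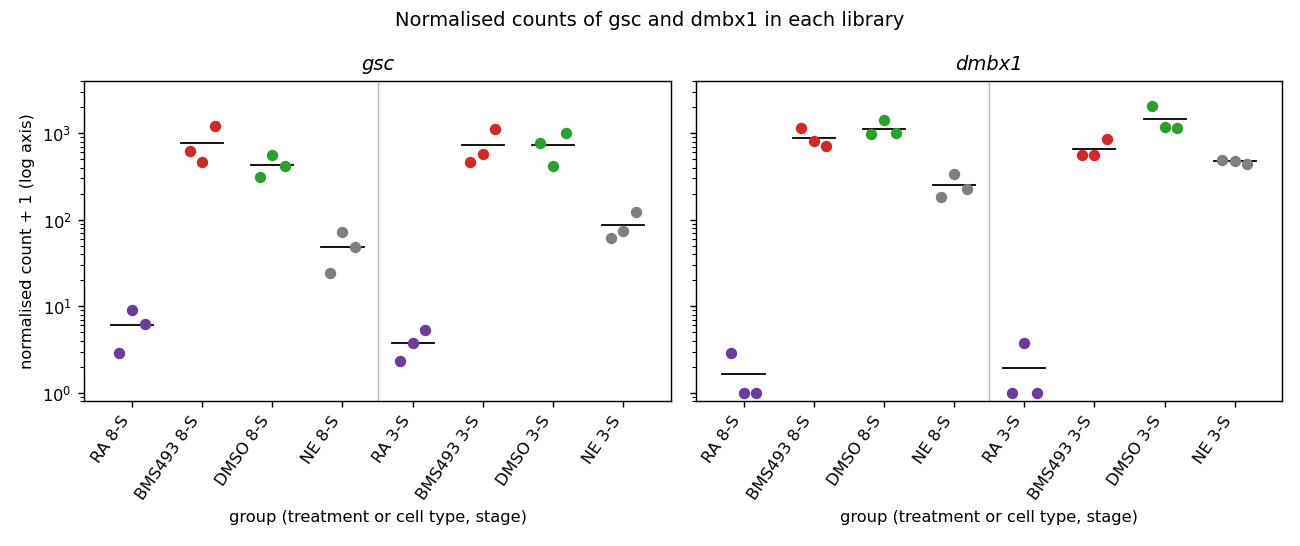
Normalised counts plus 1 (log axis) of gsc (left) and dmbx1 (right) in each of the 24 libraries, 3 points per group, with the group mean as a black line and 8-S groups to the left of 3-S groups. RA libraries lie at 0 to 7.93 normalised counts, and every other library lies at 22.97 or above for gsc and at 180.8 or above for dmbx1.

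The size of the RA effect was read from group means. gsc averaged 5.02 ± 3.01 in RA 8-S cells and 430 ± 128 in DMSO 8-S cells (SD, n = 3 each), 85.6-fold lower with RA (52.7 to 149.8 by the exact Poisson interval of the 16 RA reads, which covers counting error only). At 3-S it averaged 2.79 ± 1.47 in RA cells and 733 ± 301 in DMSO cells (SD, n = 3 each), 263-fold lower. The RA 3-S mean rests on 9 reads, lies under the mean floor of 3.10 and gives a Poisson interval of 139 to 575-fold. The log2 ratio of this mean was -8.04. In the second stranded column alone each RA 3-S library held 3 gsc counts or fewer. The log2 ratio of -6.83 there is thus a bound against the floor and not a measured ratio. With so few reads the size of this fold is uncertain. dmbx1, whose RA libraries all held 3 counts or fewer, was compared with the floor of 3 counts per library: it was at least 399.6-fold lower in RA 8-S cells than in DMSO 8-S cells, and at least 471-fold lower in RA 3-S cells than in DMSO 3-S cells. Among all genes tested with DESeq2 at an adjusted p under 0.01, RA lowered 1.72% and raised 0.953% at 8-S, and lowered 2.2% and raised 1.93% at 3-S. Because the pair was selected from this contrast, nothing is read from these shares.

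RA endodermal cells also held less of both transcripts than NE cells, which came from embryos without RA. gsc was 9.40-fold lower in RA than in NE cells at 8-S and 30.4-fold lower at 3-S, and dmbx1 was at least 88.2-fold lower at 8-S and at least 152-fold lower at 3-S. The RA 8-S cells were collected after RA had been washed out. Neither gene had regained its DMSO level by then: their RA 8-S libraries spanned 0 to 7.93 normalised counts, against 0 to 4.26 in RA 3-S libraries.

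In bulk sorted cells, fewer expressing cells and less RNA per cell cannot be told apart. The summed normalised count of the 5 endoderm marker IDs was 7183 to 9287 in RA 8-S and 5953 to 9882 in DMSO 8-S libraries, and 7173 to 10604 in RA 3-S and 10469 to 13430 in DMSO 3-S libraries. FOXA2 and foxa3 made up most of this sum, and FOXA2, foxa3 and GATA5 were not called with RA at either stage. The CXCR4 copy ENSDARG00000057633 was called lower with RA: it averaged 47.0 ± 10.5 in RA 8-S and 711 ± 280 in DMSO 8-S cells (SD, n = 3 each; log2 fold change -3.92), and its log2 fold change at 3-S was -4.08. Some markers of other cells fell with the pair. dand5 averaged 8.37 ± 7.38 in RA 8-S and 1401 ± 943 in DMSO 8-S cells, and 9.45 ± 5.86 in RA 3-S and 302 ± 132 in DMSO 3-S cells (SD, n = 3 each). The summed level of 6 neural plate IDs was 2082 to 3109 in RA 8-S and 5931 to 6927 in DMSO 8-S libraries, and 1058 to 1345 in RA 3-S and 3239 to 3938 in DMSO 3-S libraries. SOX3 carried most of this difference (log2 fold change -1.66 at 8-S and -2.40 at 3-S, called at both), while neurog1 was called higher with RA at 3-S (3.42, DESeq2 adjusted p = 0.00117), and the median of the 6 IDs was -1.03 at 8-S and -0.13 at 3-S. The part of these cells in the fall of gsc and dmbx1 was not tested.

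Outside the RA contrast, the clearest difference was between endodermal and NE cells of the same DMSO-treated embryos. gsc averaged 430 ± 128 in DMSO 8-S cells and 47.2 ± 24.2 in NE 8-S cells (SD, n = 3 each), a log2 fold change of 3.19 ± 0.50 (SE; 9.11-fold; DESeq2, adjusted p = 1.34e-08). At 3-S it averaged 733 ± 301 in DMSO cells and 84.9 ± 31.9 in NE cells (SD, n = 3 each), with a log2 fold change of 3.11 ± 0.49 (8.65-fold; adjusted p = 1.44e-08). dmbx1 averaged 1126 ± 252 in DMSO 8-S cells and 248 ± 79.6 in NE 8-S cells (SD, n = 3 each), a log2 fold change of 2.18 ± 0.34 (4.53-fold; adjusted p = 9.59e-09). At 3-S dmbx1 averaged 1459 ± 522 in DMSO cells and 470 ± 23.7 in NE cells (SD, n = 3 each), with a log2 fold change of 1.63 ± 0.33 (3.11-fold; adjusted p = 3.29e-05). Both genes were thus called in the same direction at either stage, all 3 DMSO libraries lying above all 3 NE libraries in each of the 4 comparisons. Over all genes tested, 4.4% were called higher and 2.78% lower in DMSO 8-S than in NE 8-S cells, and 4.23% higher and 3.35% lower at 3-S.

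Neither transcript was absent from NE cells. Their mean in NE cells was 11.0% (8-S) and 11.6% (3-S) of the DMSO endodermal mean for gsc, and 22.1% and 32.2% of it for dmbx1. The endoderm-to-NE difference did not depend detectably on the stage. The DMSO over NE log2 fold change at 8-S minus that at 3-S was 0.076 for gsc (95% interval -1.29 to 1.44) and 0.55 for dmbx1 (-0.38 to 1.47), and neither was called. In this stage comparison 0% of all genes were called by DESeq2, with 698 genes at an unadjusted p under 0.05 and 0 genes called by edgeR.

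BMS493 was compared with DMSO to see whether lowering RA receptor activity moved the genes. gsc averaged 763 ± 394 in BMS493 8-S cells and 430 ± 128 in DMSO 8-S cells (SD, n = 3 each), a log2 fold change of 0.83 ± 0.48 (SE; 95% interval -0.12 to 1.77; DESeq2, adjusted p = 0.999). At 3-S gsc averaged 721 ± 357 in BMS493 cells and 733 ± 301 in DMSO cells (SD, n = 3 each), and the log2 fold change was -0.025 (95% interval -0.97 to 0.92), with a sign that turned under total-count scaling. dmbx1 averaged 889 ± 225 in BMS493 8-S cells and 1126 ± 252 in DMSO 8-S cells (SD, n = 3 each), a log2 fold change of -0.34 (95% interval -0.99 to 0.31). None of these 3 values passed the test, and the intervals show how large a change at this depth and spread could have gone uncalled.

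The value of dmbx1 at 3-S was the largest of the 4 in size but was not called. dmbx1 averaged 656 ± 174 in BMS493 3-S cells and 1459 ± 522 in DMSO 3-S cells (SD, n = 3 each), 44.9% of the DMSO mean, and the ranges of the 2 groups did not overlap. The log2 fold change was -1.15 ± 0.33 (SE; 95% interval -1.81 to -0.50), with an unadjusted p of 5.40e-04 and an adjusted p of 0.127 (DESeq2). Over the alternative settings the adjusted p lay between 0.0457, reached without BMS493 3-S replicate 3, and 0.695, so that none passed 0.01. Of all genes tested, 0.173% were called lower and 0% higher with BMS493 at 3-S (1254 genes in either direction at an unadjusted p under 0.05), and 0.381% lower and 0.00595% higher at 8-S. The BMS493 effect at 8-S minus that at 3-S was 0.81 for dmbx1 (95% interval -0.11 to 1.74) and 0.85 for gsc (-0.48 to 2.19), and neither was called (0% of all genes called, 817 at an unadjusted p under 0.05, 0 called by edgeR).

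Gene expression was next compared between stages within each kind of cell. In DMSO endodermal cells the 8-S over 3-S log2 fold change was -0.77 for gsc (95% interval -1.72 to 0.17) and -0.37 for dmbx1 (-1.03 to 0.28). In BMS493 cells it was 0.084 for gsc (-0.86 to 1.03) and 0.44 for dmbx1 (-0.22 to 1.09). In NE cells it was -0.85 for gsc (-1.83 to 0.14) and -0.92 for dmbx1 (-1.58 to -0.26), and the 3 NE 8-S values of dmbx1 lay below the 3 NE 3-S values. That last difference had an unadjusted p of 0.00641 and an adjusted p of 0.924 (DESeq2), so that no stage difference of either gene was called. Stage calls were few in general: 0.291% of all genes in DMSO, 0.0141% in NE and 0.0214% in BMS493 cells.

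**Figure D2:**
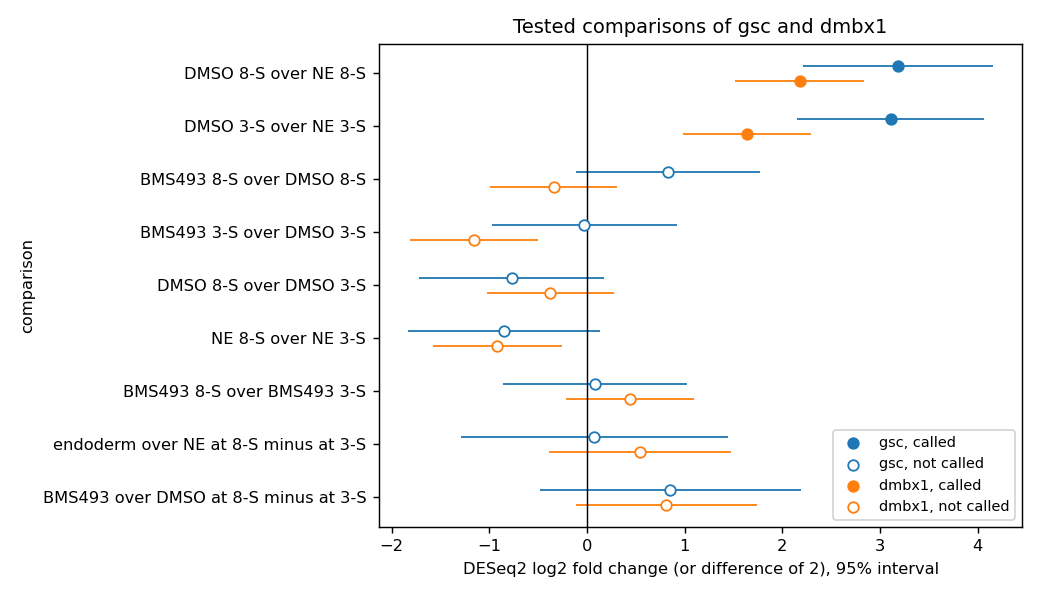
DESeq2 log2 fold changes of gsc (blue) and dmbx1 (orange) in the 7 comparisons and 2 differences of comparisons tested, with 95% intervals as bars and filled points for an adjusted p under 0.01. The 4 filled points are the DMSO over NE comparisons, at 3.19 and 3.11 for gsc and 2.18 and 1.63 for dmbx1, and the interval of dmbx1 in BMS493 3-S over DMSO 3-S cells (-1.81 to -0.50) lies left of 0 without a call.

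Ordered by mean level, gsc was highest in BMS493 8-S cells, then in DMSO 3-S, BMS493 3-S and DMSO 8-S cells, and neighbours in this part of the order overlapped. Below them, without overlap, came NE 3-S and NE 8-S cells, which overlapped with each other, and then RA 8-S and RA 3-S cells, which overlapped too. The order for dmbx1 was DMSO 3-S, DMSO 8-S, BMS493 8-S and BMS493 3-S, each overlapping with the next. It went on with NE 3-S and NE 8-S, each apart from its neighbours, and ended with RA 3-S and RA 8-S, which overlapped. Levels of gsc and dmbx1 were not compared with each other, since counts were not corrected for transcript length.

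The ratio of gsc to dmbx1 counts within a library needs no scaling between libraries. This comparison was chosen after the values had been seen. At 8-S the ratio was 0.546, 0.561 and 1.71 in BMS493 cells, 0.319, 0.398 and 0.419 in DMSO cells and 0.127, 0.212 and 0.207 in NE cells. At 3-S it was 0.831, 1.03 and 1.32 in BMS493 cells, 0.375, 0.354 and 0.884 in DMSO cells and 0.125, 0.152 and 0.273 in NE cells. RA libraries were left out, as too few reads remained. The ratio was higher in DMSO than in NE cells without overlap at both stages (mean log2 difference 1.09 at 8-S and 1.5 at 3-S). It was higher in BMS493 than in DMSO cells without overlap at 8-S (1.1), while the groups overlapped at 3-S (1.09). In exact two-sided permutation tests p was 0.1 for the first 3 of these comparisons, the smallest that 3 against 3 libraries allow, and 0.2 for the last. With 7 such comparisons the Benjamini-Hochberg adjusted values were 0.233 and 0.35, so that none passed a threshold of 0.05, which this design cannot reach.

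**Figure D3:**
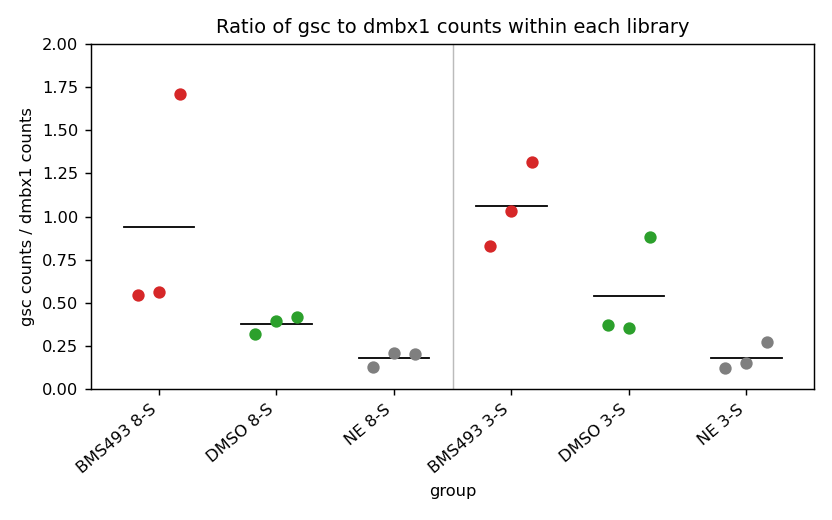
Ratio of gsc counts to dmbx1 counts within each of the 18 libraries without RA, 3 points per group with the group mean as a black line. The ratio spans 0.546 to 1.71 over the BMS493 libraries, 0.319 to 0.884 over the DMSO libraries and 0.125 to 0.273 over the NE libraries.

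The gsc mean of BMS493 8-S cells rested partly on 1 library. Without replicate 3 of that group, the log2 fold change of gsc in BMS493 8-S over DMSO 8-S cells was 0.33. The same library had the largest amount of hatching gland transcripts among endodermal libraries: the summed level of the hatching enzymes he1.1 and he1.2 and of ctslb was 4537 there, against 1721 and 699.7 in the other BMS493 8-S libraries and 941.9 to 1965 in DMSO 8-S libraries. The hatching gland derives from the prechordal plate, in which gsc is expressed earlier. NE 8-S libraries held 2473 to 7951 of these transcripts together with 22.97 to 71.3 of gsc. Their part in the gsc values was not tested.

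The neighbours of gsc in the embryo, genes of the prechordal plate and hatching gland, showed a mixed picture. RA lowered 1.72% and raised 0.953% of all genes tested at 8-S, and lowered 2.2% and raised 1.93% at 3-S. Of 11 IDs, RA 8-S cells had 2 called lower and 0 higher than DMSO cells, with a median log2 fold change of -0.73 (0.038 over all genes tested), and RA 3-S cells had 3 lower and 0 higher, with a median of -1.43 (0.018 over all genes). ISL1, a LIM homeobox gene active in the polster and in endoderm, averaged 346 ± 190 in RA 8-S and 2599 ± 572 in DMSO 8-S cells (SD, n = 3 each; log2 fold change -2.91, DESeq2 adjusted p = 1.79e-13), and its log2 fold change was -3.24 at 3-S. frzb, a secreted Wnt inhibitor, was called lower at both stages (-2.69 at 8-S and -2.72 at 3-S), and he1.2 was called lower at 3-S alone (-5.52). XBP1, a factor of secretory cells, had log2 fold changes of 0.90 and 1.2, he1.1 of -2.3 and -3.91 and klf17 of -0.099 and -1.43, none of them called. chrd, the organizer BMP antagonist, was called lower in DMSO than in NE cells at both stages (-3.40 at 8-S and -5.40 at 3-S), opposite to gsc, whereas ISL1 was called higher at both (3.15 and 3.31). The summed level of the 11 IDs was 5418 to 9627 in RA 8-S, 8238 to 15939 in BMS493 8-S, 6858 to 9391 in DMSO 8-S and 7353 to 13863 in NE 8-S libraries.

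Most genes of the Nodal pathway, which induces gsc in the early gastrula, did not pass the test with RA. The shares of all genes called lower and higher with RA were 1.72% and 0.953% at 8-S, and 2.2% and 1.93% at 3-S. The median log2 fold changes over all genes tested were 0.038 at 8-S and 0.018 at 3-S. Of 17 IDs tested, 3 were called lower and 0 higher at 8-S (median log2 fold change -0.70) and 3 lower and 0 higher at 3-S (median -0.80). The calls at both stages were lft1, a Nodal antagonist and feedback target (-3.74 at 8-S and -2.73 at 3-S), and 1 copy of SMAD3, ENSDARG00000036096, a signal transducer (-2.81 and -2.53). The type I receptor ACVR1B (ENSDARG00000018968) was called at 3-S (-1.01, adjusted p = 0.00316; DESeq2). The transcriptional partner foxh1 had log2 fold changes of 0.73 and 0.23 and the ligand gdf3 of -0.63 and -1.18, none called. In DMSO over NE cells foxh1 was called higher at both stages (1.40 and 1.82), and gdf3 was called lower at both (-2.83 and -2.63).

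Many genes of the forebrain and midbrain, the territory with which dmbx1 is associated, were lower with RA within the sorted GFP+ cells, where 1.72% of all genes were called lower at 8-S and 2.2% at 3-S. Of 16 IDs tested at 8-S, 10 were called lower and 0 higher in RA than in DMSO cells (median log2 fold change -3.53, or -2.28 with 4 genes at their bound and 1 left out). Of 17 tested at 3-S, 7 were called lower and 1 higher (median -3.19, or -1.0 with 6 genes at their bound and 2 left out). OTX2, a homeobox gene of the anterior head, averaged 6.15 ± 2.75 in RA 8-S and 279 ± 141 in DMSO 8-S cells (SD, n = 3 each; -5.49, adjusted p = 6.79e-20). Its value at 3-S was -6.11. The ID ENSDARG00000030703, an Otx gene that stands as otx2a in the supplied name table and as otx1a in the study's own tables, had -6.15 and -7.09. It is called otx2a here. SIX3 (ENSDARG00000054879), a forebrain and eye field gene, had -3.60 and -3.74, and the Wnt receptor FZD8 (ENSDARG00000038569) had -3.04 and -3.24. All 4 were called at both stages, by DESeq2. The other copy of FZD8, ENSDARG00000045444, had -0.54 and -0.090 and was not called, and the other copy of SIX3, ENSDARG00000058008, was the gene called higher at 3-S (5.15).

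In the endoderm comparison most called genes of this list went the other way from dmbx1. There 2.78% of all genes were called lower and 4.4% higher at 8-S, and 3.35% lower and 4.23% higher at 3-S. Of 17 IDs, 8 were called lower in DMSO 8-S than in NE 8-S cells and 1 was called higher, with a median log2 fold change of -2.55 (-0.11 over all genes tested, and -1.93 with 2 genes at their bound). At 3-S 10 were called lower and 1 higher, with a median of -2.01. The gene called higher at both stages was FZD8 (ENSDARG00000045444, 2.37 at 8-S and 1.92 at 3-S). The values of dmbx1 in the same comparisons, 2.18 and 1.63, had the opposite sign to most of the list. OTX2 (-0.57 and -0.36) and otx2a (-0.065 and 0.10) were not called in either comparison.

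Genes of the anterior and pharyngeal endoderm, the territory of endoderm closest to the prechordal plate, were mostly lower with RA. DESeq2 called 1.72% of all genes lower and 0.953% higher with RA at 8-S, and 2.2% lower and 1.93% higher at 3-S. Of 13 IDs tested, 11 were called lower and 0 higher at 8-S (median log2 fold change -3.64), and 9 lower and 0 higher at 3-S (median -4.07, or -3.54 with 5 genes at their bound). nkx2.7, a homeobox gene of the pharyngeal endoderm, averaged 497 ± 169 in RA 8-S and 3363 ± 576 in DMSO 8-S cells (SD, n = 3 each; -2.76, DESeq2 adjusted p = 1.58e-10), and its value at 3-S was -3.11. EYA1, a transcriptional co-factor, had -2.98 and -3.54, and was called at both stages. The T-box gene TBX1, a regulator of pharyngeal pouch formation, had -3.62 and -3.43 with adjusted p = 0.0175 and 0.0198 (DESeq2), above the threshold. The Wnt inhibitor SFRP5 had 1.55 and 0.58 and was not called.

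With BMS493 no gene of these 4 lists was called by DESeq2 or by edgeR. DESeq2 called 0.381% of all genes lower and 0.00595% higher at 8-S, and 0.173% lower and 0% higher at 3-S. Of 56 IDs tested at each stage, 5 had an unadjusted DESeq2 p under 0.05 at 8-S and 6 at 3-S. The median log2 fold changes at 8-S and 3-S were 0.56 and 0.45 for the prechordal plate and hatching gland list, 0.31 and -0.26 for the Nodal pathway, 0.31 and 0.12 for the forebrain and midbrain list, and 0.013 and 0.62 for the anterior and pharyngeal endoderm list, against 0.024 and 0.0061 over all genes tested. dmbx1 at 3-S (-1.15, not called) lay below all 4 medians, but a few uncalled genes of the lists, such as SFRP5 (-2.08), lay lower still.

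**Figure D4:**
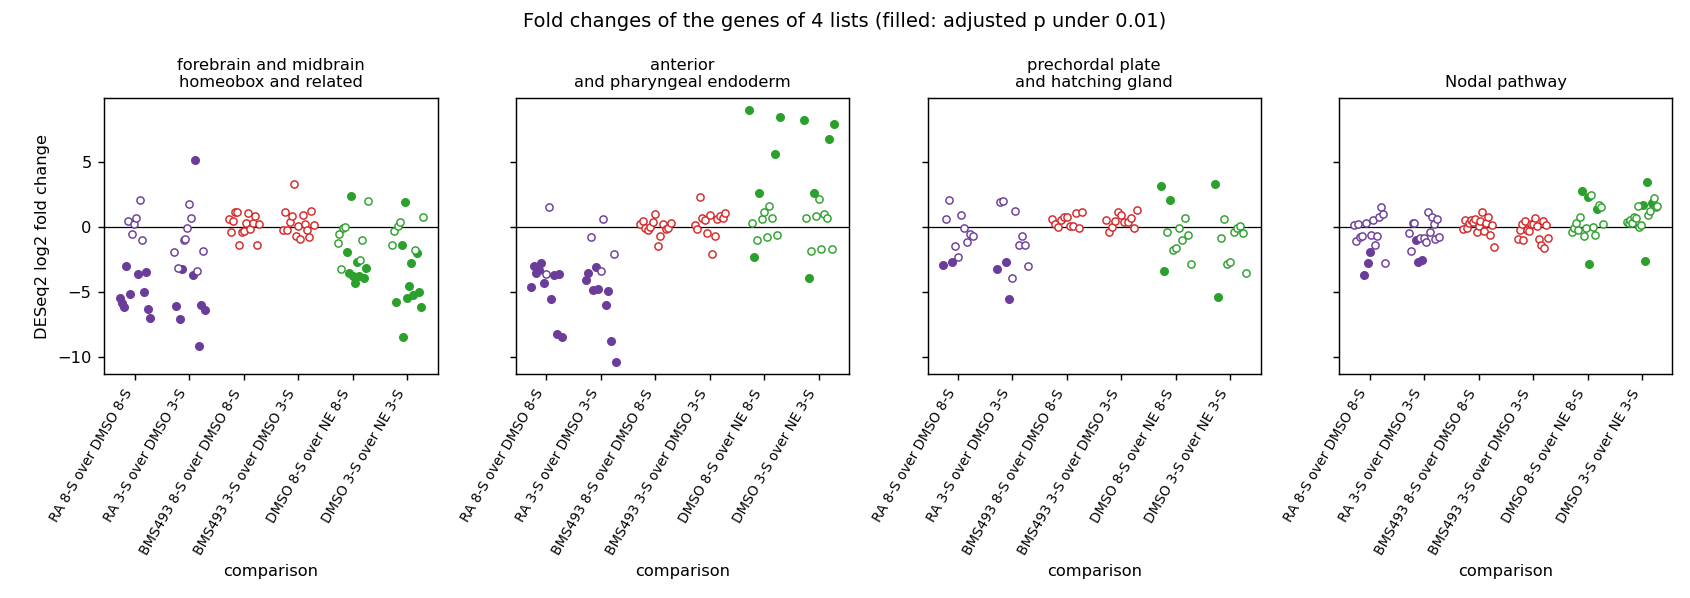
DESeq2 log2 fold changes of the tested genes of 4 lists (gsc and dmbx1 left out) in RA over DMSO (purple), BMS493 over DMSO (red) and DMSO over NE (green) comparisons at 8-S and 3-S, 1 point per gene ID, filled where the adjusted p was under 0.01. RA calls lie below 0 except 1 gene of the forebrain and midbrain list at 3-S, no red point is filled, and the DMSO over NE medians of the forebrain and midbrain list are -2.55 and -2.01.

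Among lists of other cell types that GFP+ cells could hold, the DMSO over NE comparison at 8-S gave 2 higher and 0 lower of 7 notochord IDs, 0 higher and 3 lower of 6 neural plate IDs, 0 and 3 of 5 paraxial mesoderm IDs, 0 and 3 of 3 neural crest IDs, 0 and 2 of 5 epidermis IDs and 1 and 3 of 4 blood and vessel IDs. dand5 was the only Kupffer's vesicle ID tested there and was called higher. The shares of all genes called higher and lower in DMSO over NE cells were 4.4% and 2.78% at 8-S, and 4.23% and 3.35% at 3-S. At 3-S the counts were 1 higher and 2 lower of 7 notochord, 0 and 4 of 6 neural plate, 0 and 4 of 5 paraxial mesoderm, 0 and 2 of 3 neural crest, 1 and 1 of 5 epidermis and 1 and 3 of 4 blood and vessel IDs, and dand5 was called higher. With RA at 8-S, where 1.72% of all genes were called lower and 0.953% higher, 2 notochord, 1 neural plate and 2 paraxial mesoderm IDs and dand5 were called lower, and 0 IDs of these lists were called higher. The paraxial mesoderm IDs were tbx16 (log2 fold change -5.05 at 8-S and -4.99 at 3-S) and msgn1 (-6.27 and -3.61), both called at both stages. With RA at 3-S, where 2.2% of all genes were called lower and 1.93% higher, noto, SOX3, TP63, TAL1 and dand5 were also called lower, and neurog1 (3.42) and DLX3 (3.26) were called higher. No ID of the neural crest list was called with RA at either stage by DESeq2 or edgeR (1 of 3 tested at 8-S and 0 of 3 at 3-S had an unadjusted DESeq2 p under 0.05).

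The genes whose pattern was most like that of each of the pair were sought over the 24 libraries by Pearson's r of log2(normalised count + 1), among 8540 genes with a symbol and a mean of at least 50. These values describe likeness and carry no test, since libraries of a group share their treatment and the RA libraries dominate the variance. The 5 genes most like gsc were GBX2 (r = 0.96), a homeobox gene of the anterior hindbrain border, CXCR4 (ENSDARG00000057633, 0.96), a chemokine receptor that guides endodermal cells, IRX5 (0.95), a homeobox gene, HES4 (0.94), a bHLH repressor, and FLRT3 (0.94), a membrane protein of FGF signalling and adhesion. GBX2 averaged 36.3 in RA 8-S, 2374 in BMS493 8-S, 1074 in DMSO 8-S and 230.8 in NE 8-S cells, the same order of groups as gsc at that stage. Among the 5 most like dmbx1 were HOXD11 (r = 0.96), otx2a (0.95), HOXA11 (0.95) and EPHA4 (0.94). HOXD11 and HOXA11 are hox genes of the posterior body, whereas otx2a belongs to the anterior Otx family, and all 3 averaged 0.284 to 6.07 normalised counts in the RA groups.

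**Figure D5:**
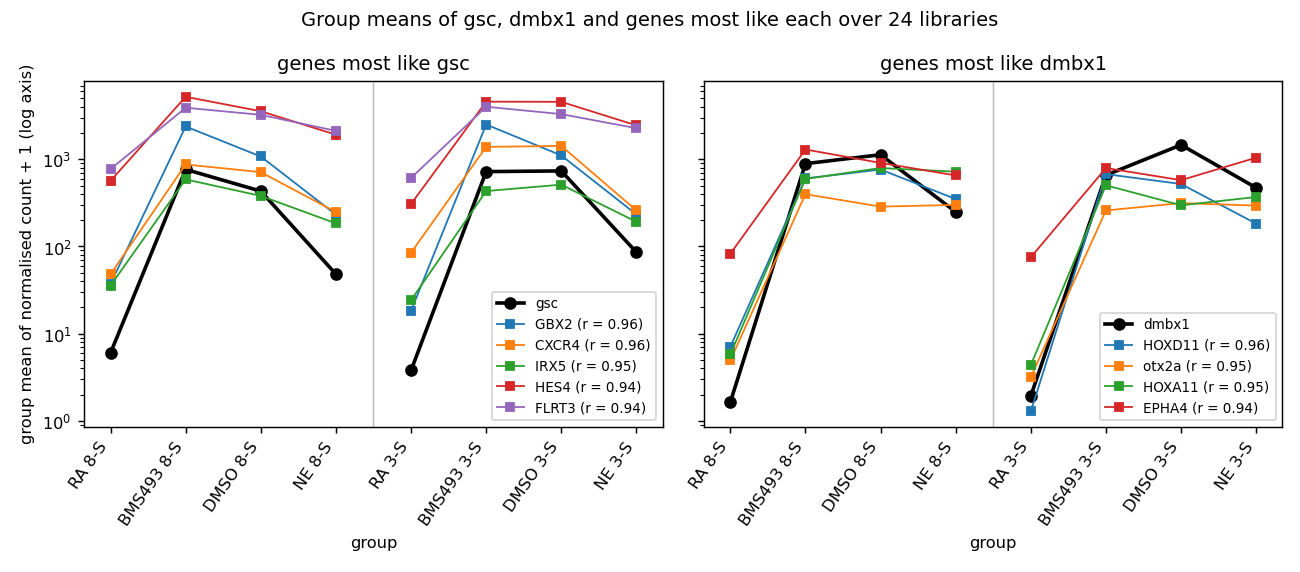
Group means of normalised counts plus 1 (log axis) for gsc (left, black) and dmbx1 (right, black) and genes among the 5 most like each over 24 libraries (coloured, r in the legend; 5 on the left, 4 on the right), with 8-S groups to the left of 3-S groups. All lines dip in RA cells, and the lines of the right panel part company in NE cells, where dmbx1 averaged 248 (8-S) and 470 (3-S), against 1126 and 1459 in DMSO cells, and otx2a averaged 298.7 and 293.1, against 285.4 and 313.3 in DMSO cells.

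Without the 6 RA libraries the likeness changed. Over the remaining 18 libraries, GBX2 kept r = 0.89 and CXCR4 0.92 with gsc, but HOXD11 had r = 0.50, otx2a 0.27, EPHA4 0.083 and HOXA11 -0.24 with dmbx1. The genes then most like gsc were FZD8 (ENSDARG00000045444, r = 0.91), with rtn1a, fras1 and GRHL2 also among the first 5, and those most like dmbx1 were ELOVL6 (0.96), ACKR3, cd9a, FOXA2 (0.95) and CSRP2. None of the 5 genes was shared with the 24-library list for gsc or for dmbx1. gsc and dmbx1 themselves had r = 0.92 over 24 libraries, 0.82 over the 18 without RA and 0.056 over the 12 endodermal DMSO and BMS493 libraries.

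The counts behind the pair were checked for sources of error. For both genes the 2 strand-specific count columns summed to the unstranded column in 24 of 24 libraries, with 51.7% of gsc and 52.1% of dmbx1 reads on the first strand. The other copy of DMBX1, ENSDARG00000002510, had 0 to 19 counts per library and 71 in all, with 29 of them in NE 3-S cells. Reads that map to several places were not counted, so that a stretch shared by both copies would be missing from either gene.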

How the data were processed

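RNA-seq was performed on sorted GFP+ and GFP- cells of Tg(sox17:GFP) embryos (24 libraries, 8 groups of 3, grouped by the titles and characteristics). By the study's methods and the submitters' processing notes, the authors used SMART-seq2 cDNA and Nextera XT. STAR (2.5.4) placed the single-end reads on Zv9 with Ensembl 79. The deposited tables hold raw counts per gene, neither normalised nor filtered, as 1 unstranded column (used here) and 2 stranded columns (alternatives). Lines for unmapped (2.09% to 5.43%), multimapping (4.76% to 6.70%), no-feature (11.6% to 23.7%) and ambiguous (1.77% to 3.06%) reads were left out.

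Counts were tested with DESeq2 (1.42.0, R 4.3.3; Wald test, 1 fit of all 24 libraries, median-of-ratios size factors, default filtering), as in the study, over all genes. Calls needed a Benjamini-Hochberg adjusted p under 0.01. SE is that of the log2 fold change. Stage dependence was tested as a difference of 2 log2 fold changes. Symbols came from a supplied table covering 65.0% of IDs. Genome positions and sequences were not used here. Replicate pairs had chi-square statistics per degree of freedom of 17.5 to 160.0 over genes with at least 20 counts, far from 1 library deposited under 2 names. Functions were tested on simulated data.

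Named genes were gsc and dmbx1, the 5 genes most like each, and up to 4 members per list with the highest mean over the 24 libraries. Some genes that this rule selects are not reported here. Other genes named were chosen after their values were seen. There were 4 pathway lists and 8 marker lists. The genes and lists were chosen with earlier results of these data known. Where a group held 3 counts or fewer in each library, folds are bounds against a floor of 3 counts per library, and list medians are also given with genes at such bounds, leaving out genes at the floor in both groups.

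Replicate numbers 1 to 3 recur in the titles of all groups. Deviations from group means of same-numbered DMSO and NE libraries correlated at 0.22 to 0.37 (8-S) and 0.48 to 0.69 (3-S). Every pair was thus above the limit of 0.1 set for pairing by number, which the other comparisons did not meet. The main DESeq2 tests and the permutation tests nevertheless treated DMSO and NE libraries as unpaired. Alternatives were edgeR (4.0.16), TMM and total-count scaling, a filter of at least 10 counts in at least 3 libraries, a replicate block, the stranded columns, fits of the compared groups alone, and leaving out each library.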

Additional observations from a re-analysis of the deposited data

How the results depend on the processing

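The 4 DMSO over NE calls of gsc and dmbx1 kept their direction and their call in all 14 alternatives each, with log2 fold changes of 2.86 to 3.61 for gsc and 1.98 to 2.46 for dmbx1 at 8-S, and 2.81 to 3.46 for gsc and 1.30 to 1.78 for dmbx1 at 3-S. Total-count scaling shifted the 8-S values to 3.07 and 2.06. With the replicate block the 8-S values were 3.23 and 2.18 and the 3-S values 3.17 and 1.63, and the block changed no call of either gene and no count of calls in these comparisons by over 1.5 times. This block was 1 replicate term shared by all 8 groups. Deviations of same-numbered DMSO 8-S and DMSO 3-S libraries correlated at -0.38, -0.21 and -0.14, so the shared term cannot stand for pairs within a stage. Pairing of DMSO and NE libraries within each stage was not tested. No BMS493, stage or interaction value of either gene was called under any alternative. Where values near 0 changed sign the cause was not tested. For gsc in BMS493 3-S over DMSO 3-S cells these were 0.049 with total-count scaling, 0.012 with the first stranded column, and -0.51 to 0.28 with a library left out. For gsc in the endoderm over NE difference between stages they were -0.040 with the first stranded column and -0.27 to 0.50 with a library left out. For gsc in BMS493 8-S over BMS493 3-S cells they were -0.41 (without BMS493 8-S replicate 3) to 0.56. The RA over DMSO log2 ratios were -5.71 (gsc, 8-S), -7.65 (dmbx1, 8-S) and -7.94 (dmbx1, 3-S) with the first stranded column. With the second they were -7.65 (dmbx1, 8-S), -6.83 (gsc, 3-S) and -7.80 (dmbx1, 3-S). The values of dmbx1, and that of gsc at 3-S with the second column, are bounds against the floor. The floor of 3 counts is a larger share of a column with fewer reads. The RA over DMSO log2 ratio of gsc at 8-S was -6.91 to -6.03 with a library left out. The gsc to dmbx1 ratio kept the direction of its 4 treatment and cell type differences in 8 of 8 alternatives each, which were added after the data had been seen.

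Counts over all genes moved more. With edgeR, 775 genes (1328 with DESeq2) were called in DMSO 8-S over NE 8-S, 23 (65) in BMS493 8-S over DMSO 8-S, 17 (30) in BMS493 3-S over DMSO 3-S, 260 (480) in RA 8-S over DMSO 8-S, 453 (786) in RA 3-S over DMSO 3-S, and 0 between stages in DMSO (44), NE (3) and BMS493 cells (3). The stage count was 28 in DMSO and 7 in BMS493 cells with the first stranded column and 19 in DMSO cells with the second. With only the groups compared it was 39 in NE and 1 in BMS493 cells, and 21 genes differed between stages in the endoderm over NE comparison. The filter on low counts gave 1 gene whose BMS493 effect differed between stages. With a library left out, DMSO 8-S over NE 8-S gave 815 (without DMSO 8-S replicate 2) to 1218 calls, and 867 without NE 8-S replicate 3. The stage count lay between 9 and 42 in DMSO, 0 and 4 in NE, and 0 and 34 in BMS493 cells, and the stage differences of the endoderm and BMS493 effects gave 0 to 3 and 0 to 2 calls. Of the list calls with RA at 8-S, edgeR gave 6 (10) for the forebrain and midbrain list and 1 (2) for the prechordal plate list, and at 3-S 1 (3) for the Nodal pathway.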
